A study of Mus musculus with 6 samples.

Results

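Integrins and laminins, the cell's receptors for extracellular matrix and a main component of basement membranes, were followed in lung tumors of the RPM mouse and in normal lung. The set holds every row of the count table whose symbol is that of an integrin alpha chain, an integrin beta chain 1 to 8, or a laminin alpha, beta or gamma chain. This gave 37 of 22477 gene symbols, 26 for integrins (18 alpha, 8 beta) and 11 for laminins. All 37 passed the filter on low counts.

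All 6 mice carried floxed Rb1 and Trp53 alleles (Rb1 fl/fl; p53 fl/fl) and a Myc T58A allele behind a lox-stop-lox cassette (Myc lsl/lsl). The labels list Ad5CGRP-Cre, an adenovirus that expresses Cre from the CGRP promoter of neuroendocrine cells, for the 2 normal lung samples as well as for the 4 tumors. The protocol gives 8 weeks as the age at induction, and the age at collection is not given in the sources used here. Each library came from a different mouse, and libraries are named normal 1 and 2 and tumor 3, 4, 5 and 6 after their titles. The protocol describes later arms of entinostat and anti-PD-1 treatment, to which the labels assign none of these samples. Total counts ran from 91049413 to 99122494 in normal lung and from 54735438 to 70817440 in tumors. The 8 neuroendocrine markers summed to between 985 and 1653 CPM (counts scaled to the TMM-adjusted size of the library) in tumors against 21.2 and 28.1 in normal lung, and the 7 alveolar type 2 markers to between 58.1 and 708 against 21463 and 19730. In whole tissue, fewer cells of a type and less RNA per cell cannot be told apart.

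An integrin is a pair of 1 alpha and 1 beta chain that spans the membrane, binds matrix or another cell outside, and is coupled to actin inside by talin and kindlin. The pair sets the ligand: alpha1, alpha2, alpha10 and alpha11 with beta1 bind collagens, alpha3, alpha6 and alpha7 bind laminins, the alphav group and alpha5 and alpha8 bind RGD motifs, and the beta2 and beta7 pairs belong to leukocytes. Laminins are trimers of an alpha, a beta and a gamma chain. In the lung they form, with type IV collagen, nidogen and perlecan, the thin sheet that alveolar epithelium and capillary endothelium share.

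Promoter sequences are shown for 4 genes, as the set moved together: Itgb1 and Lama5, which kept the highest levels of their classes in tumors, and Itga8 and Lamb3, which were among the genes that fell most. Each run is the 150 bases before the transcription start, 5′ to 3′ on the gene's strand, from RefSeq on GRCm38.p6. Capitals mark a GC box (GGGCGG, or CCGCCC on the other strand) or a TEAD motif (GGAATG or CATTCC).
Itgb1, chr8:128685504-128685653, plus strand: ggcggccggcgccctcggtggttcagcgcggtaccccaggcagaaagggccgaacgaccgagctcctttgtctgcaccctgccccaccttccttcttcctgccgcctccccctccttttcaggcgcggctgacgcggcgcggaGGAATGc
Lama5, chr2:180225860-180226009, minus strand: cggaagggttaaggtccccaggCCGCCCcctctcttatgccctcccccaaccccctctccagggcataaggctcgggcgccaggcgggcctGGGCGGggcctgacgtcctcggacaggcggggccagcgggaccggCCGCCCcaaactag
Itga8, chr2:12301945-12302094, minus strand: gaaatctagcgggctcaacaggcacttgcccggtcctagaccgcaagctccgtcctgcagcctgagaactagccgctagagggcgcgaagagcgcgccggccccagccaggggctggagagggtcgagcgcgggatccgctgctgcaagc
Lamb3, chr1:193301844-193301993, plus strand: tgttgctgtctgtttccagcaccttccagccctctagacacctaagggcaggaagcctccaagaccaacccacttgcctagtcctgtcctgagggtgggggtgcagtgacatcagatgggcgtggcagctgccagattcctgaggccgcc
Lama5 held 3 GC boxes in this stretch, Itgb1 held 1 TEAD motif next to its start, and neither motif occurred in the printed stretches of Itga8 and Lamb3. Windows were available for 23 of the 37 genes, 26 windows in all, and were searched over 250 bases before the start on both strands. A GC box was present in 9 of the 26 windows (34.6%) against 32.7% of 32851 windows of all genes, and a TEAD motif in 3 (11.5%) against 12.6%, those of Itga10, Itgb1 and, farther from the start than the printed stretch, Lamb3. The E-box CACGTG, which reads the same on both strands, was in 0 of the 26, against 6.02% of all windows.

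Of the 37 genes, 32 were lower in tumors and 0 higher, while 5 did not pass the test (edgeR quasi-likelihood test, Benjamini-Hochberg adjusted p under 0.05 over 18027 genes). Over all tested genes 32.6% were called lower and 31.3% higher, and against this background 86.5% of the integrin and laminin genes were called lower. None was called higher at an unadjusted p under 0.05 either. DESeq2 called 1 higher and 32 lower, and limma voom 0 and 33. The median log2 fold change was -3.09, against 0.02 for all tested genes. It was -2.27 for the alpha chains, -3.08 for the beta chains and -3.93 for the laminins. In 33 of the 37 genes every tumor was below both normal libraries, which held for 39.8% of all tested genes. P-values here weigh the difference between groups against the spread between mice.

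**Figure D1:**
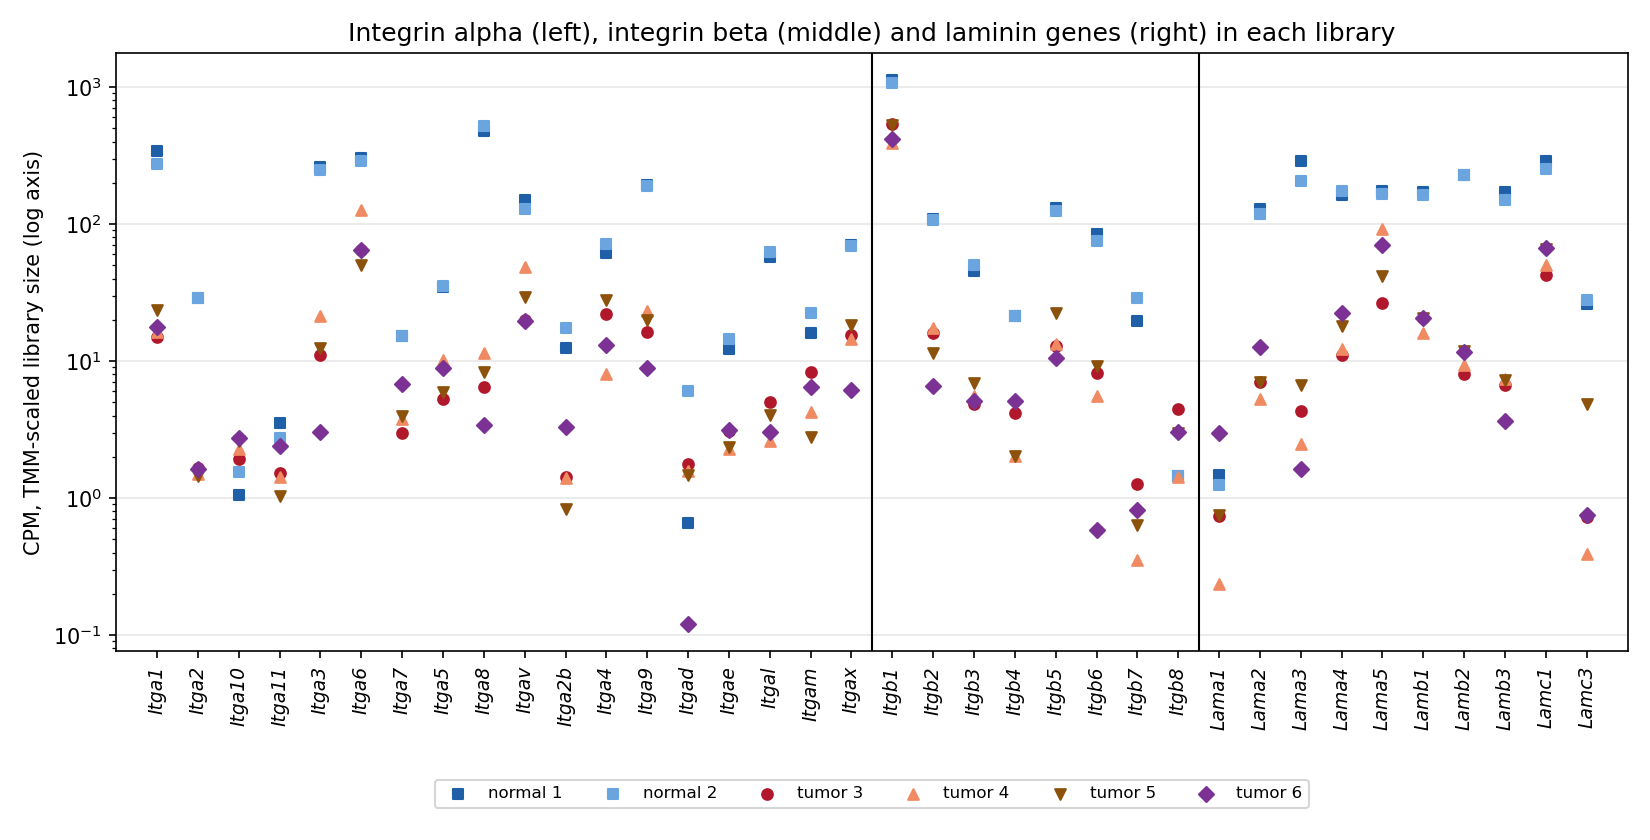
CPM of 36 of the 37 genes (log axis) in the 2 normal libraries (blue squares) and the 4 tumors (other symbols), with integrin alpha chains on the left, beta chains in the middle and laminins on the right. Itgb1 is the highest gene in every library, at 1063 to 1122 CPM in normal lung and 390 to 536 in tumors, and the tumors lie below both normal libraries for 32 of the genes shown.

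The beta1 chain, which pairs with most alpha chains, fell least among the 32. Itgb1 stood at 1122 and 1063 CPM in normal 1 and 2, and at 536, 390, 532 and 418 in tumors 3 to 6. The groups did not overlap, and the tumors lay within 1.37-fold of each other. The log2 fold change was -1.22 ± 0.19 (SE, adjusted p = 0.00182). Per kilobase of its transcript, Itgb1 had 286 ± 10.9 CPM (SD, n = 2) in normal lung and 123 ± 19.9 (n = 4) in tumors, the highest of the 37 genes in both groups.

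Among receptors for laminin, Itga6, whose chain pairs with beta1 or beta4, kept more of its level than Itga3. Itga6 was at 305 and 287 CPM in normal lung and at 65.0, 126, 50.6 and 64.4 in tumors 3 to 6, a log2 fold change of -1.95 ± 0.35 (adjusted p = 0.00304). Tumor 4 was the highest, and every tumor was below normal lung. Itga3, the alpha3 chain of epithelial cells, went from 261 and 250 CPM to 11, 21.3, 12.5 and 3.05, a log2 fold change of -4.42 ± 0.63 (adjusted p = 0.00116). Tumor 4 was again the highest, and tumor 6 the lowest. Per kilobase, Itga6 exceeded Itga3 by 1.32 and 1.29 times in normal 1 and 2 and by 6.64, 6.67, 4.56 and 23.8 times in tumors 3 to 6. With all annotated exons joined as the length, Itga3 stood above Itga6 in normal lung, at 17.7% and 13% of the summed alpha chains on average. In tumors Itga6 stayed above Itga3 with that length, at 30.2% against 7.14%. Itga7, the laminin receptor chain of muscle, was at 15.2 and 15.3 CPM in normal lung and at 3.00, 3.77, 4.00 and 6.81 in tumors (log2 fold change -1.80 ± 0.36, adjusted p = 0.00467). Its highest tumor was tumor 6, where the 8 striated muscle markers summed to 841 CPM, against 16.7 to 58.0 in the other tumors and 366 and 708 in normal lung. The list went both ways: Ttn, Acta1 and Ckm, at 370, 321 and 146 CPM, made up nearly all of the sum in tumor 6, whereas the heart muscle genes Myh6, Myh7 and Tnni3 were lowest there, at 0.015, 0.105 and 0.120. The part of muscle in the Itga7 level was not tested.

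Itgb4, the partner of alpha6 in hemidesmosomes, which anchor epithelium to laminin, was low throughout. It was at 21.3 and 21.2 CPM in normal lung and 4.17, 2.02, 2.04 and 5.15 in tumors 3 to 6 (log2 fold change -2.67 ± 0.44, adjusted p = 0.00204). Itgb1 exceeded Itgb4 per kilobase by 85.0 and 80.9 times in normal lung and by 131 to 420 times in tumors. Tumor 6 had the most Itgb4, and the 7 basal and squamous epithelial markers summed to 53.0 CPM there, against 0.255 to 2.52 in tumors 3 to 5 and 1.67 and 3.86 in normal lung. Krt5 was at 16.5 CPM in tumor 6 and at 0 in tumor 4 and normal 1. The part of basal cells in this value was not tested.

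Collagen receptors split into a pair that fell and a pair that did not pass. Itga1, the chain of a type IV collagen receptor found on smooth muscle and endothelium, went from 344 and 276 CPM to 14.9, 16.2, 23.7 and 17.8 (log2 fold change -4.10 ± 0.22, adjusted p = 4.08e-05). Itga2, of a receptor for fibrillar collagen, went from 28.9 and 29.1 CPM to 1.67, 1.51, 1.46 and 1.62, and its tumors lay within 1.14-fold of each other, the narrowest range of the 37 genes. Itga10 was at 1.06 and 1.54 CPM in normal lung and at 1.92, 2.28, 2.59 and 2.75 in tumors. Every tumor was above both normal libraries, the one gene of the set for which that held, against 6751 of all 18027 tested genes. The difference did not pass (log2 fold change 0.88 ± 0.38, adjusted p = 0.0816). It did pass with DESeq2 (0.94, adjusted p = 0.0200) and with a stricter filter (0.96, adjusted p = 0.0444). Exons of Gm42957 cover 33.5% of the Itga10 exons in GENCODE on GRCm38, so its reads are uncertain. Itga11, of a collagen receptor of fibroblasts, had 3.56 and 2.74 CPM in normal lung and 1.53, 1.43, 1.03 and 2.39 in tumors, and did not pass (-0.98 ± 0.42, adjusted p = 0.0823). It passed with limma voom (-1.04, adjusted p = 0.0429) and without tumor 6 (-1.15, adjusted p = 0.0384).

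All 4 RGD-binding alpha chains fell. Itga8, the partner of beta1 that binds nephronectin and marks mesenchymal cells, had the lowest fold change of the 37 genes. It went from 478 and 519 CPM to 6.45, 11.4, 8.37 and 3.44, a log2 fold change of -6.07 ± 0.45 (adjusted p = 9.84e-05) or 67.3-fold lower. All tumors were at or below 2.28% of the normal mean. Itgav, whose chain pairs with beta1, beta3, beta5, beta6 and beta8, went from 150 and 129 CPM to 19.9, 48.7, 29.3 and 19.6 (-2.25 ± 0.38, adjusted p = 0.00224). Itga5, the fibronectin receptor chain, was at 34.8 and 35.3 CPM in normal lung and at 5.32, 10.2, 5.90 and 8.90 in tumors (-2.21 ± 0.30, adjusted p = 0.000952). For both, each tumor was below normal lung and tumor 4 stood highest. Itga2b, the platelet chain that pairs with beta3, went from 12.5 and 17.5 CPM to 1.43, 1.41, 0.834 and 3.28 (-3.11 ± 0.53, adjusted p = 0.0025). The 7 platelet markers summed to 42.9 and 45.4 CPM in normal lung and to 20.4 to 32.2 in tumors, where 4 fell, 1 rose and 2 did not pass. The one that rose, Gp1bb, was at 3.23 and 3.52 CPM in normal lung and 11.7 to 23.2 in tumors.

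Of the 4 beta chains other than beta1 that pair with alphav, 3 fell. Itgb3, of platelets and endothelium, went from 45.6 and 50.1 CPM to between 4.89 and 6.94. Itgb5, a vitronectin receptor chain, went from 131 and 125 CPM to 12.9, 13.3, 22.6 and 10.5. Itgb6, the epithelial chain that activates latent TGF-beta, went from 85.2 and 74.8 CPM to 8.18, 5.54, 9.23 and 0.583. Their log2 fold changes were -3.09 ± 0.21, -3.11 ± 0.30 and -3.76 ± 0.84 (adjusted p = 7.18e-05, 0.000249 and 0.00762). No tumor overlapped normal lung in these 3 genes. Itgb6 had the widest range between tumors of the 37 genes, 15.8-fold, with tumor 6 the lowest. Itgb8, which also activates latent TGF-beta, was at 1.46 and 1.45 CPM in normal lung and at 4.47, 1.43, 2.97 and 3.02 in tumors 3 to 6. Tumors 3, 5 and 6 were above both normal libraries and tumor 4 was at their level. The difference did not pass (1.03 ± 0.51, adjusted p = 0.115), but did without tumor 4 (1.26, adjusted p = 0.0224).

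**Figure D2:**
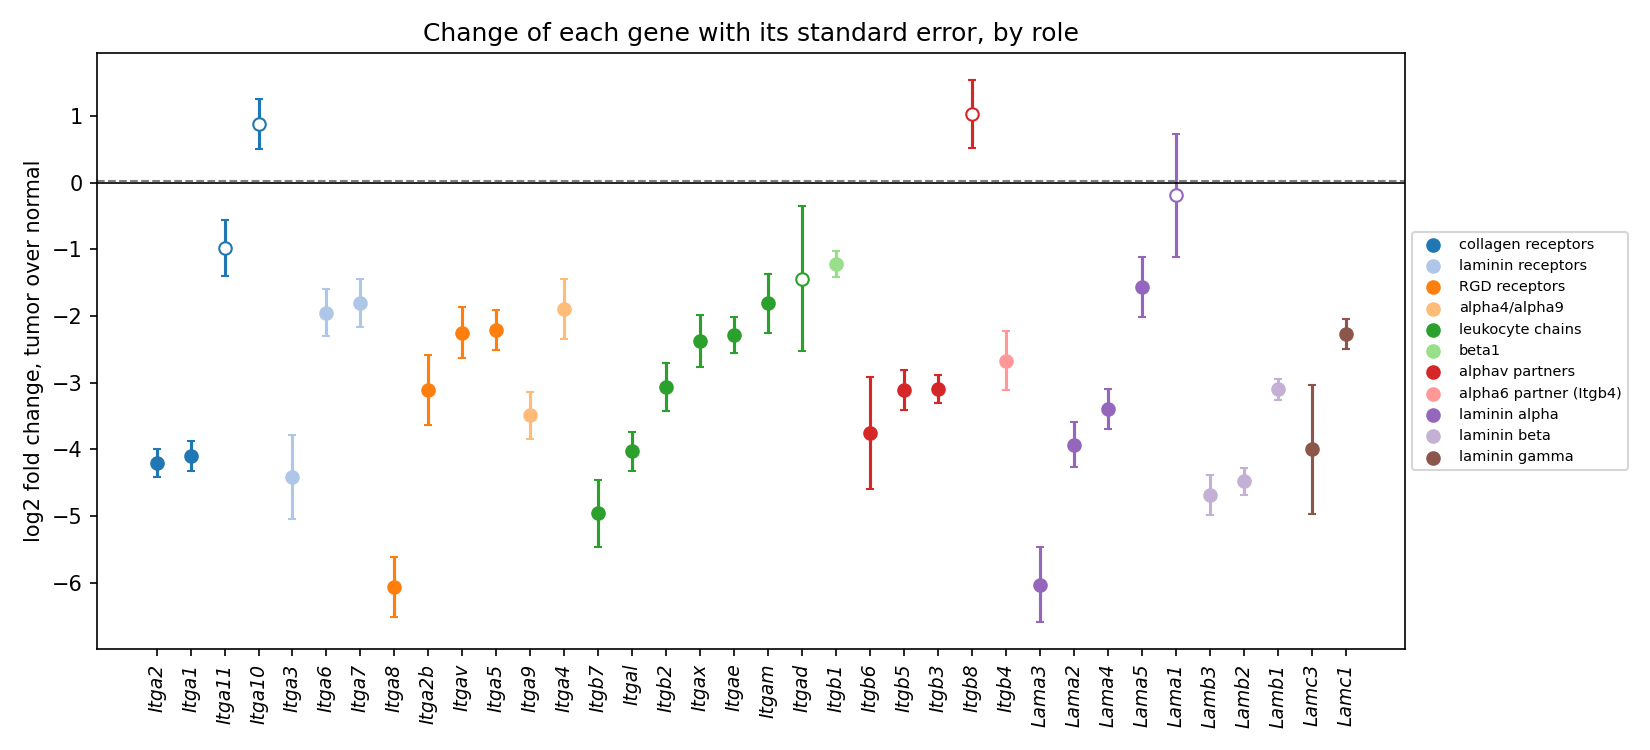
Log2 fold change (tumor over normal) of 36 of the 37 genes with its standard error, colored by role. Filled points passed the test and open points did not, the dashed line is the median of all tested genes (0.02), and the 2 points above it are Itga10 (0.88) and Itgb8 (1.03), both open.

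Chains of leukocyte integrins fell as well, with 6 of 7 called. Itgb2, the beta chain shared by the CD11 integrins, went from 108 and 107 CPM to 15.9, 17.5, 11.5 and 6.61 (log2 fold change -3.06 ± 0.36, adjusted p = 0.00052). Itgal, its partner on lymphocytes, went from 57.4 and 62.8 CPM to 4.99, 2.61, 4.06 and 3.05 (-4.03 ± 0.29, adjusted p = 8.55e-05). Itgb7, the partner of alpha4 and alphaE, went from 19.6 and 28.7 CPM to 1.27, 0.353, 0.638 and 0.823 (-4.96 ± 0.50, adjusted p = 0.000292). Tumor 3 was the highest and tumor 4 the lowest for both Itgal and Itgb7. The sum of the 8 T and NK cell markers had the same extremes. It was 6.39, 2.67, 5.07 and 2.78 CPM in tumors 3 to 6 against 21.8 and 27.1 in normal lung. Cd4, the largest marker of that sum in every tumor, did not pass (adjusted p = 0.167). Its values were 2.98, 1.98, 3.66 and 1.15 CPM, with the peak in tumor 5 and the minimum in tumor 6. Cd3d had its minimum in tumor 6 too (0.269, against 0.275 in tumor 4), and Cd3e in tumor 5. The other markers of that list had theirs in tumor 4. Itgax, of alveolar macrophages and dendritic cells, went from 70.9 and 69.7 CPM to 15.4, 14.6, 18.2 and 6.15, and was lowest in tumor 6. Itgb2 and the sum of the 7 macrophage and monocyte markers (1123, 669, 672 and 236 CPM, against 5326 and 4881) were lowest there too. Most of that sum was Lyz2, at 176 CPM in tumor 6 and 590 to 1034 in the other tumors, while Mrc1 was highest in tumor 6 (25.1) and Csf1r and Adgre1 were lowest in tumor 4. Itgae, whose pair with beta7 binds E-cadherin, and Itgam, the CD11b chain of myeloid cells, fell by 2.29 and 1.81 on the log2 scale (SE 0.27 and 0.44, adjusted p = 0.000562 and 0.0103). Itgam lost its call without normal 2 (-1.57, adjusted p = 0.0759). Exons of Gm49368 cover 68.7% of the Itgam exons in GENCODE on GRCm38, so its reads are uncertain. How far the number of leukocytes sets these levels was not tested.

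The remaining leukocyte chain, Itgad, had 65 and 560 counts in normal 1 and 2 and 118, 80, 114 and 8 in tumors 3 to 6. The normal libraries lay on both sides of tumors 3 to 5, and the difference did not pass (log2 fold change -1.44 ± 1.09, adjusted p = 0.278). Without normal 2 the sign reversed (0.88, adjusted p = 0.624). Its exons overlap those of Cox6a2, a subunit of cytochrome oxidase in muscle, in GENCODE on GRCm38. Cox6a2 had 744 and 1083 counts in normal lung and 69 to 400 in tumors.

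Itga4 and Itga9, related chains that bind VCAM-1 among other ligands, both fell. Itga9 went from 193 and 189 CPM to 16.2, 23.1, 19.8 and 8.87 (-3.49 ± 0.35, adjusted p = 0.000278). Itga4 went from 61.2 and 71.1 CPM to 22.0, 8.07, 27.9 and 13.0 (-1.90 ± 0.45, adjusted p = 0.00992), with tumor 5 the highest and tumor 4 the lowest. Without normal 2 the Itga4 call was lost (-1.80, adjusted p = 0.0543).

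The laminin alpha chains ranged from the second largest fall of the set to no detected change. Lama3, of epithelial laminin, went from 288 and 206 CPM to 4.29, 2.49, 6.66 and 1.63, a log2 fold change of -6.03 ± 0.56 (adjusted p = 0.000211). Lama5, the broad alpha chain of adult basement membranes, went from 175 and 166 CPM to 26.5, 91.9, 41.9 and 69.9 (-1.57 ± 0.45, adjusted p = 0.0199). Its lowest tumor was tumor 3 and its highest tumor 4, and no tumor reached normal lung. The call was lost without normal 1 (-1.54, adjusted p = 0.0839), normal 2 (-1.62, 0.0691) or tumor 5 (-1.44, 0.0506). Lama2, of muscle and mesenchyme, and Lama4, of vessels, went from 128 and 118 CPM to 7.00, 5.32, 7.09 and 12.7, and from 164 and 173 CPM to 11, 12.3, 17.9 and 22.6. Their log2 fold changes were -3.93 ± 0.34 and -3.40 ± 0.30 (adjusted p = 0.000159 and 0.000175). Both were highest in tumor 6, where the 7 fibroblast markers also had their highest tumor sum, 1035 CPM against 307 to 441 in the other tumors and 1839 and 1796 in normal lung. The sum of the 10 endothelial markers was lowest in tumor 6, at 82.9 CPM against 112 to 132 in the other tumors and 4236 and 3893 in normal lung. The fibroblast sum was mostly collagen (Col3a1 579, Col1a2 200 and Col1a1 166 CPM in tumor 6), whereas Pdgfra (12.5) and Tcf21 (0.239) were lowest in tumor 6. The part of fibroblasts in the Lama2 and Lama4 levels was not tested.

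Lama1, the alpha chain of embryonic basement membranes, was at 1.47 and 1.24 CPM in normal lung and at 0.745, 0.236, 0.755 and 3.01 in tumors. Tumor 6 lay above both normal libraries and the other tumors below them. The difference did not pass (-0.19 ± 0.92, adjusted p = 0.865), and without tumor 4 its sign reversed (0.15, adjusted p = 0.868).

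The laminin beta chains and Lamc1 and Lamc3 fell. Lamb1, the beta chain of many tissues, went from 172 and 162 CPM to 20.7, 16, 20.6 and 20.5 (-3.10 ± 0.16, adjusted p = 3.47e-05). Lamb2 fell further, from 230 and 228 CPM to 8.08, 9.40, 11.9 and 11.6 (-4.48 ± 0.20, adjusted p = 2.95e-05). Tumors lay within 1.29-fold of each other for Lamb1 and within 1.48-fold for Lamb2. Lamb3, an epithelial beta chain, went from 172 and 149 CPM to 6.65, 7.46, 7.33 and 3.64 (-4.68 ± 0.30, adjusted p = 6.14e-05). Lamc1, the gamma chain of most laminins, went from 287 and 253 CPM to 42.3, 49.9, 65.3 and 66.6 (-2.27 ± 0.22, adjusted p = 0.000233). It kept 20.8% of the normal mean, more than any of the beta chains or Lamc3. Lamc3 went from 25.9 and 28.0 CPM to 0.730, 0.393, 4.83 and 0.748 (-4.00 ± 0.97, adjusted p = 0.0104), with tumor 5 far above the others.

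Because chains act as pairs and trimers, their levels were compared within each class per kilobase of the longest principal coding transcript. Summed over the class, alpha chains went from 349 and 346 CPM per kilobase in normal lung to between 33.4 and 58.8 in tumors, and beta chains from 407 and 391 to between 115 and 154. The summed alpha chains were thus 0.858 and 0.885 times the summed beta chains in normal lung and 0.249, 0.511, 0.247 and 0.284 times in tumors 3 to 6. Itgb1 was 0.949 and 0.923 times the sum of the 12 alpha chains that pair with it in normal lung, and 4.67, 1.96, 4.50 and 3.90 times in tumors. Tumor 4 was nearest to normal lung in both ratios.

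The chain that led its class in tumors (Itga6, Itgb1, Lama5 or Lamb1) had a larger share there than in normal lung, and several chains of low level also rose in share, such as Itga7, from 1.09% and 1.10% to between 1.60% and 5.07%. Itgb1 was 72.3% and 71.2% of the beta chains in normal lung and 91.2%, 89.0%, 90.4% and 93.2% in tumors. Itga6 was 20.3% and 19.2% of the alpha chains in normal lung, behind Itga8 at 23.6% and 25.8%, and became the first in tumors at 39.4%, 49.8%, 30.8% and 44.6%, with Itga8 at 1.77% to 3.78%. Lama5 rose in share from 18.5% and 19.4% of the laminin alpha chains to 43.4%, 74.0%, 45.4% and 52.6%, and Lama3 went from 32.8% and 26% to between 1.32% and 7.80%. Lamb1 went from 28.9% and 29.0% of the beta chains to 57.0%, 47.4%, 50.6% and 56.8%. For these shares no tumor overlapped normal lung, but 2 against 4 libraries cannot go below p = 0.133 in a two-sided exact permutation test, the value each of the 6 genes gave. For Itga6, Itgb1, Lama5, Lamb1 and Itga7 the rise is in share only, since the level of each of these genes fell. Shares depend on the lengths used: with all annotated exons joined, Itga6 made up 30.2% of tumor alpha chains on average in place of 41.2%, and Lamb1 42.7% of laminin beta chains in place of 53.0%, and both were still first in their class.

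**Figure D3:**
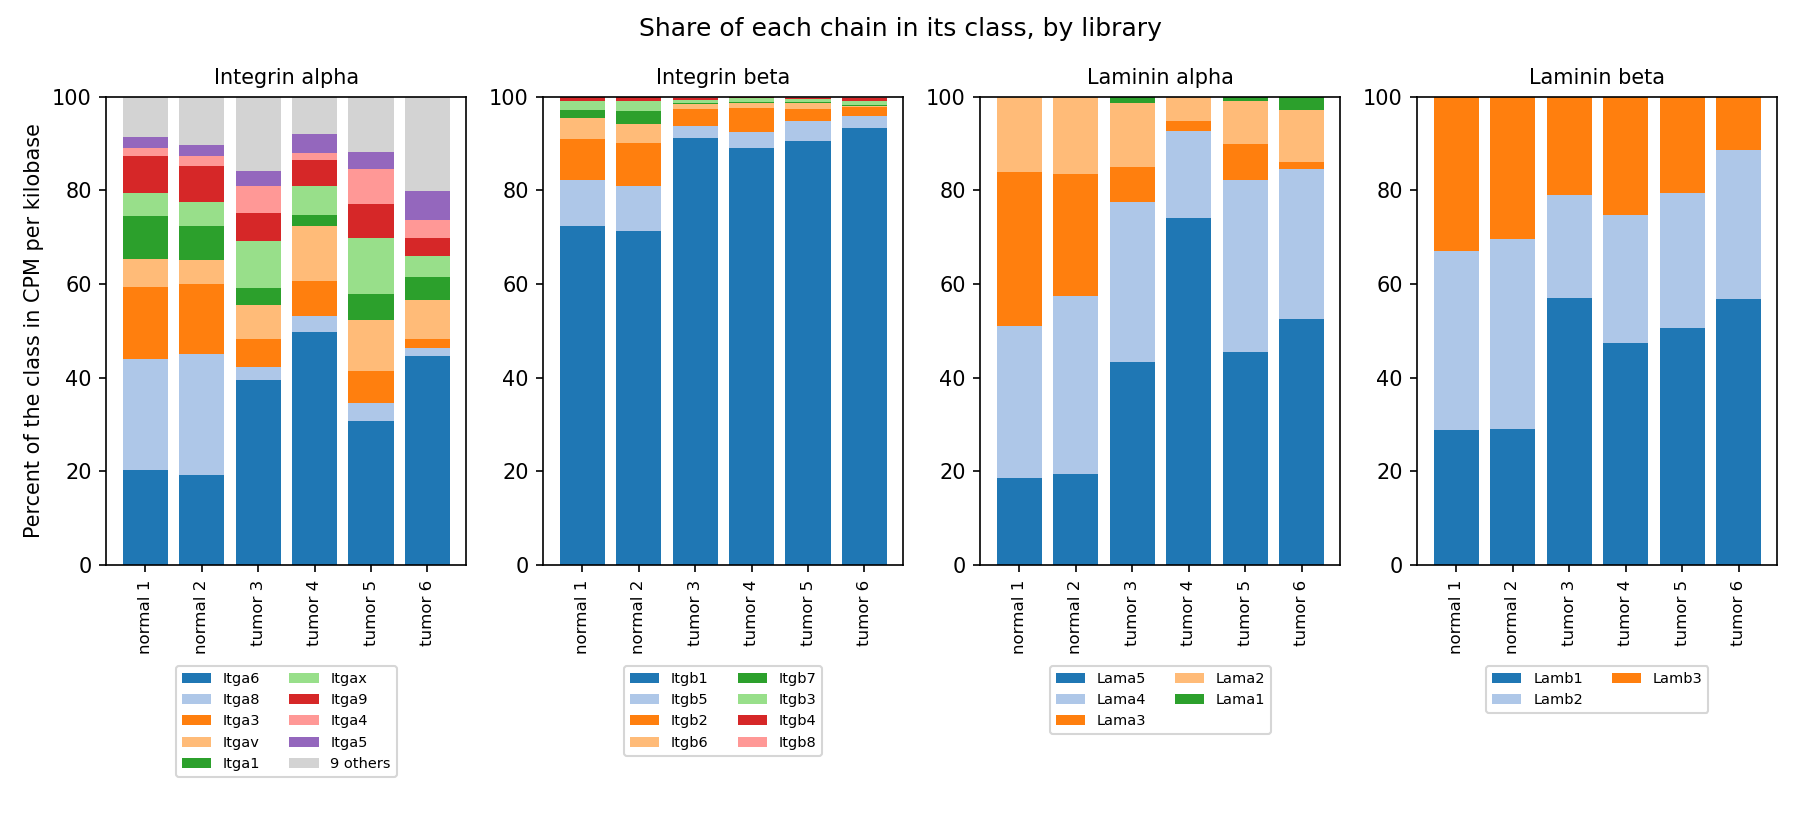
Share of each chain in its class (percent of summed CPM per kilobase) in each library, with 1 panel each for integrin alpha, integrin beta, laminin alpha and laminin beta chains, stacked. Itgb1 takes 89.0% to 93.2% of beta chains in tumors, and Itga6, Lama5 and Lamb1 take more of their class in every tumor than in either normal library.

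Ordered by CPM per kilobase, normal lung was led by Itgb1, Itga8 (85.8 ± 4.99, SD, n = 2), Itga6 (68.6 ± 2.99) and Itga3 (52.6 ± 1.52), with no overlap between neighbours in that order. The order depends on the length used: with all annotated exons joined, Itga3 came before Itga6 in normal lung (17.7% and 13% of the alpha chains on average). In tumors the order was Itgb1, Itga6 (17.8 ± 7.84, SD, n = 4), Lamc1 (7.35 ± 1.56), Lama5 (5.05 ± 2.55) and Itgb5 (4.52 ± 1.63). Lamc1, Lama5 and Itgb5 overlapped in their tumor values, and Itga6 at 11.7 to 29.3 lay above Lamc1 at 5.54 to 8.74 without overlap. Itga8 moved from second to rank 19 of 37, and Lama3 from rank 15 to 30.

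Tumors were far more alike for some members than for others. The ratio of the highest to the lowest tumor had a median of 2.5 over the 37 genes, from 1.14 for Itga2 to 15.8 for Itgb6, against a median of 1.79 over the 17377 tested genes with a count in every tumor. It exceeded 4-fold for 7 of the 37 genes, among them Itgb6, Itgad, Lama1, Lamc3, Itga3 and Lama3, and for 2933 of those 17377. Itgb6, Itga3, Lama3 and Lamb3 were lowest in tumor 6, whereas Itgb4 was highest there. Relative to the normal mean, tumors 3, 4, 5 and 6 held 10.2%, 6.92%, 11.5% and 0.729% of Itgb6 and 4.32%, 8.35%, 4.90% and 1.19% of Itga3. The sum of the 7 alveolar type 2 markers, most of it Sftpc and Sftpa1, was lowest in tumor 6 as well, at 2.67%, 2.46%, 3.44% and 0.282% of their normal sum, and the 7 alveolar type 1 markers were at 2.68%, 2.34%, 2.65% and 1.00%. Every marker of both lists fell. Abca3 did not follow the sum: it was at 43.5, 46.1, 69.5 and 48.3 CPM in tumors 3 to 6, against 747 and 713 in normal lung. Of the type 1 markers, Hopx was lowest in tumor 5 (22.0 CPM, 24.8 in tumor 6) and Rtkn2 in tumor 3 (20.6, 21.3 in tumor 6). All other markers of both lists were lowest in tumor 6. How far remaining alveolar cells set the levels of these chains was not tested.

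Each tumor was highest for some members and lowest for others: tumors 3, 4, 5 and 6 were highest for 8, 9, 10 and 10 of the 37 genes and lowest for 9, 11, 5 and 12. Tumor 4 was lowest for Itgb1, Itgb4, Itgb7, Itgb8, Itga4, Itgae, Itgal, Lama1, Lama2, Lamb1 and Lamc3. Among those for which it was highest were Itga6, Itga3, Itgav, Itga5 and Lama5, singled out after their values were seen, at 42.7%, 8.35%, 34.9%, 29.0% and 53.9% of the normal mean. The others were the mesenchymal chain Itga8, Itga9, the leukocyte chain Itgb2 and Lamb3, at 2.28%, 12.1%, 16.3% and 4.65%. The E-cadherin gene Cdh1, named after its values were seen, was at 213 CPM in tumor 4 and at 13.0, 12.7 and 5.58 in tumors 3, 5 and 6, against 445 and 377 in normal lung. The alveolar type 1 markers summed to 154 CPM in tumor 4 against 177 and 174 in tumors 3 and 5, and the type 2 markers to 507 against 549 and 708, while Sftpd, Napsa and Hopx were highest in tumor 4. The part of epithelial cells in these levels was not tested.

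**Figure D4:**
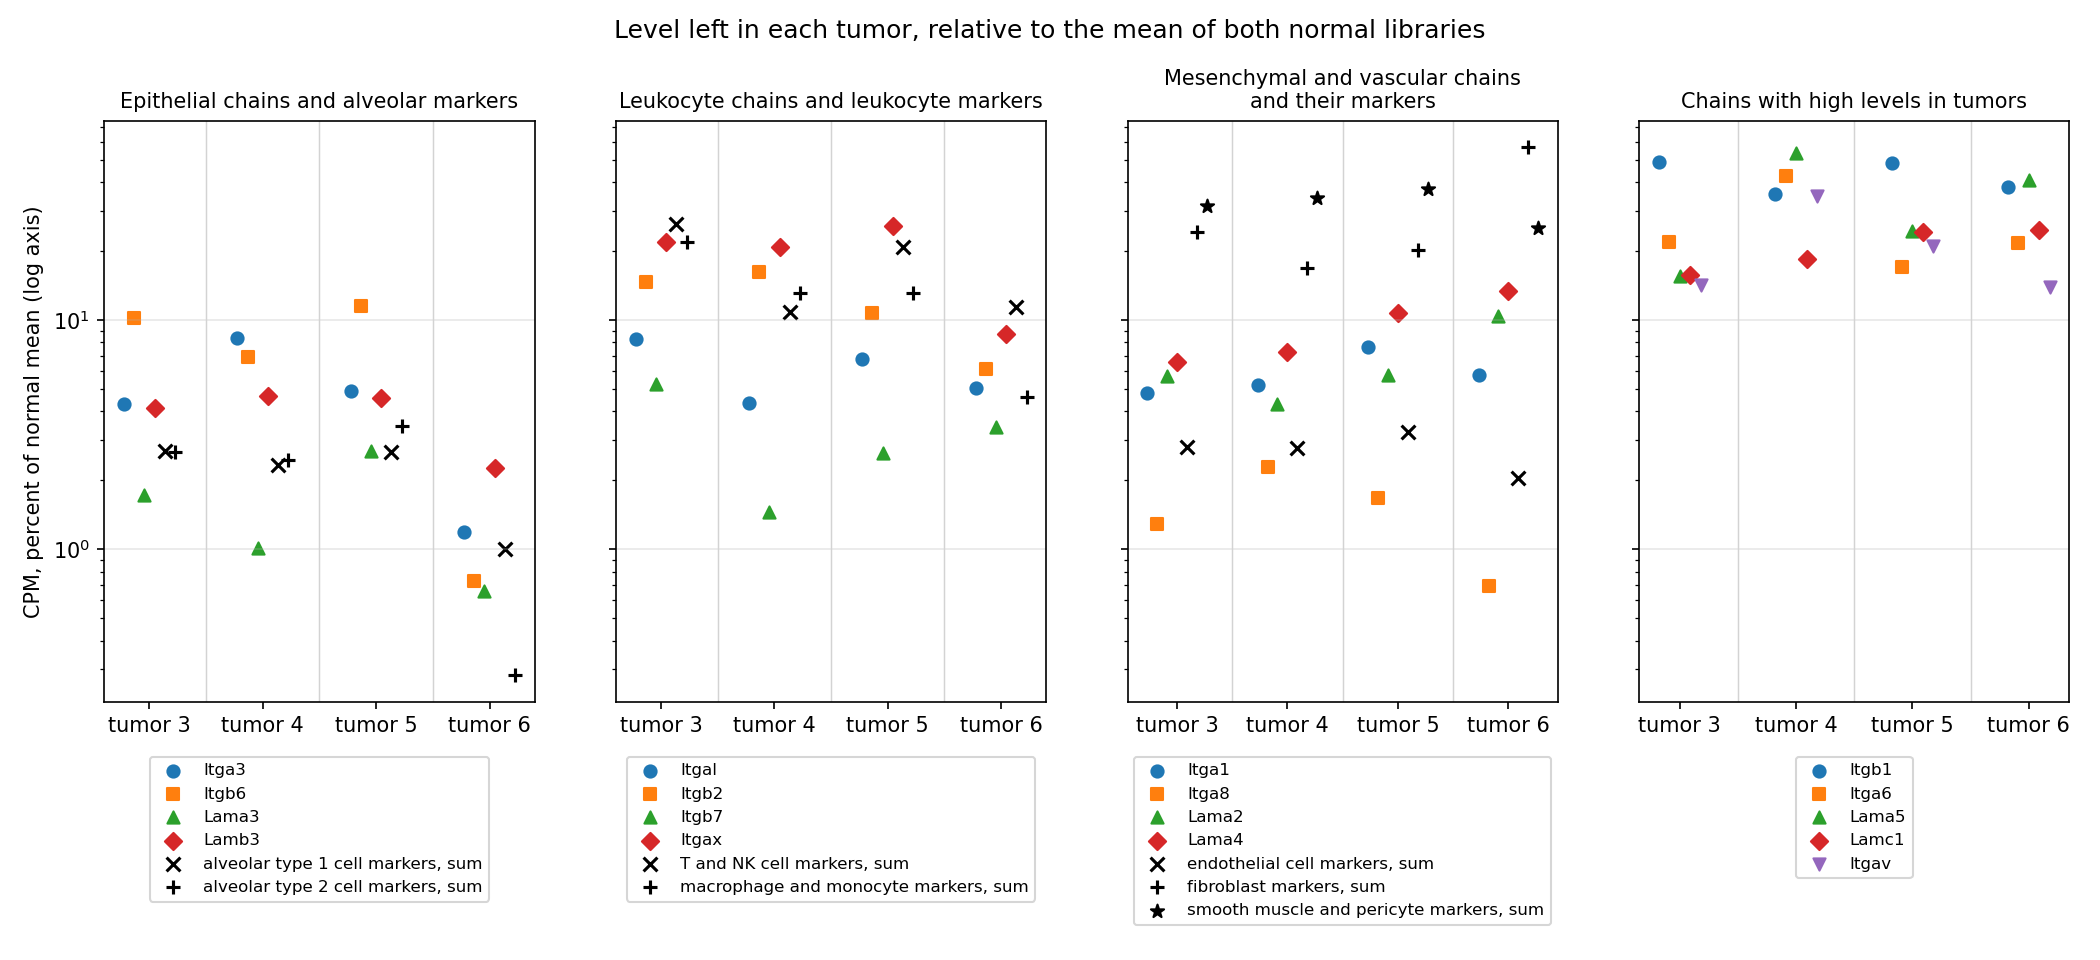
Level left in each of the 4 tumors as percent of the mean of both normal libraries (log axis), for selected chains (colored symbols) and for the summed markers of cell types that use them (black symbols). Itgb6 and Itga3 drop to 0.729% and 1.19% in tumor 6, where alveolar type 2 markers are at 0.282%, and Lama5 reaches 53.9% in tumor 4. The smooth muscle and pericyte sum holds 1 marker that rose, Rgs5, at 4.31 and 4.28 CPM in normal lung and 65.6 to 134 in tumors. The other 6 markers of that list fell.

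Genes for the proteins that join integrins to actin and signaling mostly fell with the integrin genes. Of 31 adaptor and signaling genes 27 were lower and 0 higher, with a median log2 fold change of -2.31 (0 higher also at an unadjusted p under 0.05 and with limma voom, 1 with DESeq2). Over all tested genes 32.6% were called lower and 31.3% higher. The 3 with the smallest p were Lims2, a PINCH adaptor of integrin-linked kinase, from 83.7 and 80.5 CPM to between 0.984 and 1.23, and the tensins Tns1 and Tns2. Lims1, on the same list, fell less, from 331 and 319 CPM to between 117 and 202 (2.1-fold lower, adjusted p = 0.00738). Tns1 went from 1496 and 1325 CPM to between 23.0 and 34.2, and Tns2 from 261 and 244 to between 5.51 and 9.17. The log2 fold changes of Lims2 and Tns1 were -6.23 ± 0.18 and -5.67 ± 0.23 (adjusted p = 2.36e-05 and 2.46e-05), and Tns2 was 32.1-fold lower (adjusted p = 2.97e-05). The 4 that did not pass were Bcar1, a scaffold of focal adhesions, and Itgb1bp1, Krit1 and Sharpin, which regulate integrin activation.

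Genes for other parts of the basement membrane followed the laminin genes, with 16 of 20 lower, 1 higher and a median of -2.55 (all tested genes: 32.6% lower, 31.3% higher). Col4a1 and Col4a2, the main type IV collagen chains, were 6.52-fold and 7.26-fold lower (adjusted p = 0.000122 and 0.000107), and Sparc, a collagen-binding matrix protein, 8.21-fold (adjusted p = 6.64e-05). Fras1, a basement membrane protein of embryonic epithelium, was the one that rose, from 9.66 and 11.7 CPM to 48.5, 26.5, 75.6 and 39.8 (2.16 ± 0.44, adjusted p = 0.0052). No tumor overlapped normal lung.

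Among 23 other laminin receptors, dystroglycan-related genes and hemidesmosome parts, 12 fell, 1 rose and 10 did not pass (median -0.93). Of all tested genes, 32.6% fell and 31.3% rose. Dag1, the dystroglycan gene, went from 426 and 335 CPM to between 58.1 and 73.0 (-2.57 ± 0.16, adjusted p = 6.01e-05). Utrn, which links dystroglycan to actin, was 23.2-fold lower, and Sdc1, a syndecan, 5.09-fold (adjusted p = 2.95e-05 and 6.59e-05). Rpsa rose from 510 and 601 CPM to 3801, 4312, 2747 and 3950 (2.74 ± 0.29, adjusted p = 0.000335). Rpsa is known both as a laminin receptor and as a protein of the small ribosomal subunit, and its many processed pseudogenes make its reads uncertain.

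Of 32 tested integrin ligands 25 fell, 1 rose and 6 did not pass (median -2.90), against 32.6% lower and 31.3% higher over all tested genes. Icam2, an endothelial ligand of the Itgal and Itgb2 pair, went from 150 and 161 CPM to between 1.41 and 3.58 (-5.88 ± 0.40, adjusted p = 7.42e-05). Lrrc32, which holds latent TGF-beta at the cell surface, was 16.1-fold lower, and Mfge8, an RGD protein bound by alphav integrins, 9.39-fold (adjusted p = 6.61e-05 and 0.000107). Jam3, a junctional adhesion molecule that binds the Itgam and Itgb2 pair, rose from 13.0 and 13.6 CPM to 62.0, 36.4, 69.7 and 50.8 (2.04 ± 0.30, adjusted p = 0.00123), with no tumor overlapping normal lung.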

How the data were processed

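The count table holds 6 RNA-seq libraries of mouse lung tissue (2 normal, 4 tumor), poly(A)-selected per the labels' protocols. The sample titles and column names give no batch. Its values are raw gene counts that the authors made with TPMCalculator, per the labels. Per the submitters' processing notes, which give no role or order, the aligner STAR 2.5.4a, the trimmers Trimmomatic 0.36 and Trim Galore, the build mm9, and DESeq2 1.22.2 in R 3.5.1 were used. The sources used here state neither strand nor gene models, so reads of overlapping genes cannot be told apart. Of counts from 1 to 10, 61.2% were even.

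Counts were tested with edgeR 4.0.16 in R 4.3.3 (quasi-likelihood, filter by group with minimum count 10 and minimum total 15, TMM, tissue as the only term), adjusted by Benjamini-Hochberg over 18027 genes. SE is the size of the log2 fold change divided by the square root of F. Exact permutation tests used SciPy 1.17.1. Levels per kilobase use the longest principal coding transcript of GENCODE M21 on GRCm38, and promoters come from RefSeq on GRCm38.p6. On simulated counts of 18027 genes for this comparison, the test recovered 12% of 50 genes changed 2-fold, 74% changed 4-fold and 98% changed 16-fold, with 9 false calls. The genes changed there were few beside the 11512 called in the real data, and none was of low level. These rates therefore need not hold for the real comparison or for its low genes. Named were all members and, from each pathway list, up to 3 genes per direction by smallest p among those that passed, with Lims1 added beside Lims2. Members, lists and markers were chosen with earlier results of these data known. The values of 1 member are not reported here, although totals over the set count it. The marker Ly6g was not analysed here. Other settings were 3 scalings (upper quartile, RLE, totals only), 2 filters (none, or 1 CPM throughout a group), voom from limma 3.58.1, DESeq2 1.42.0, a table without 1130 small non-coding and histone genes, each library left out in turn, and, for shares, other transcript lengths.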

Additional observations from a re-analysis of the deposited data

Results flagged for a closer look

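Among the genes reported, 3 had a tumor whose CPM lay apart from the other 3 by more than Dixon's 95% critical value for 4 samples allows. Lamb1 was at 16 CPM in tumor 4 against 20.5 to 20.7 in the others. Lamc3 was at 4.83 CPM in tumor 5 against 0.393 to 0.748, and Itgad at 0.120 in tumor 6 against 1.48 to 1.76. Chance flags about 1 in 20 such groups.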

How the results depend on the processing

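The number of integrin and laminin genes called lower was 32, and ranged from 32 to 33 over the 8 other settings and from 29 to 33 with a library left out. The number called higher was 0 but 1 with the stricter filter and 1 with DESeq2 (Itga10 in both), and from 0 to 1 with a library left out. Upper quartile scaling moved the median of all genes by 0.12 on the log2 scale and that of the 37 genes from -3.09 to -2.97. The number of all genes called was 11512, and 7651 to 12079 with a library left out, the lowest without normal 1. With a lone normal library, that library is assumed to vary as the tumors do. Of the values of single members under all settings, 505 kept direction and side of the threshold, 5 lost a call, 5 gained one and 2 reversed (Itgad 0.88 without normal 2 and Lama1 0.15 without tumor 4). With a library left out, Itgad ran from -2.30 to 0.88 and Lama1 from -1.12 to 0.15, and neither was called in any setting. Itgad gave no value under the stricter filter. The cause of these changes was not tested. Adaptors called higher went from 0 to 1 under upper quartile scaling, the stricter filter, DESeq2 or without tumor 6. Basement membrane genes called higher went from 1 to 2 under 5 settings and without tumor 3 or 6, and other laminin receptors from 1 to 2 without tumor 4. Average tumor shares moved by less than 1 SD with any tumor left out. With all exons joined, a choice made after seeing the data, that of Itga6 was 30.2% and that of Lamb1 42.7%. No paired analysis was possible because the groups share no replicate number. Depth limits the lowest genes: Itgad had 8 counts in tumor 6 and Lama1 12 in tumor 4.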
